A study of Saccharomyces cerevisiae with 18 samples.

Results

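This account compares poly(A) RNA that came down with the whole population of nuclear pore complexes (all NPCs, 3 libraries) with poly(A) RNA taken straight from the total extract (input, 3 libraries), gene by gene. Members were chosen by their labels alone: the 6 libraries are those titled as the purification of all NPCs and as input, of 18 libraries in the series. The series holds 6 groups of 3 libraries. All cells were Saccharomyces cerevisiae of the W303 background, grown asynchronously to log phase in the rich medium YPD, harvested and ground in liquid nitrogen. All NPCs were caught on a GFP nanobody, a small antibody fragment that binds the green fluorescent protein. The input RNA was extracted with Trizol without a purification. The GFP control, 3 libraries from a background purification on the same nanobody, is used beside both, and the 3 libraries of basket-less pores, also on the nanobody, are used for a few values. Poly(A) RNA was selected in every library. For the tagged protein by which the pores were caught, for other alleles and for the strain that gave the input extract, the sources used here give nothing.

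The nuclear pore complex is the channel through which mRNA leaves the nucleus. It is built from nucleoporins that form a scaffold of stacked rings, a mesh of phenylalanine-glycine repeats in the centre, filaments on the cytoplasmic face and a basket on the nuclear face. Messenger ribonucleoproteins reach the basket, pass the channel with the export receptor Mex67-Mtr2 and are stripped of export factors on the cytoplasmic side by the helicase Dbp5, so RNA on purified pores can include transcripts in transit, together with whatever else the purified material carries.

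Library totals were 12299632, 12277160 and 12970760 counts for all NPCs and 13208635, 11171677 and 13733038 counts for input, within the range of the series of 10592840 to 16620246. The counts of any pair of all NPCs libraries differed by a chi-square of 1.58 to 1.83 per degree of freedom, where counting error alone gives a value near 1, and those of the input libraries by 2.90 to 9.54. Of 7127 features, 6429 had enough counts to be tested, among them 5762 nuclear protein-coding genes. Levels are CPM, counts scaled to the size of each library, after TMM scaling, a correction for differences in library composition. Fold changes are log2 values ± standard error from edgeR's quasi-likelihood test with 3 libraries a group, and a gene is called at a Benjamini-Hochberg adjusted p under 0.05. Every value is a share within a library, so a higher value can come from more of that RNA or from less of the others, and amounts of RNA were not compared. Separate cultures are not stated in the labels, so a p-value here measures the spread among these libraries alone, and that spread may be technical.

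The RNA on all NPCs was different in make-up from the RNA of the extract over most of the transcriptome. With all NPCs over input, 2868 genes (44.6% of those tested) were called higher and 2384 (37.1%) lower. A change of more than 2-fold was called upward for 1023 genes (15.9%) and downward for 748 (11.6%). These shares are the background for every count of members below. The median log2 fold change over all genes was 0.08, and it was -0.19 with upper-quartile scaling, with which 2133 genes were called higher and 3167 lower. The background purification on the same nanobody also gave RNA unlike the extract. In the GFP control 2391 genes (37.2%) were called higher than in input and 2729 (42.4%) lower, 563 (8.76%) and 587 (9.13%) of them by more than 2-fold. Capture on the nanobody and capture of pores are both present in all NPCs and absent from input. The comparison with input cannot tell them apart. Values of the GFP control therefore stand beside those of all NPCs for many genes and lists, but not for all. Where they are left out, the GFP control may differ from input too.

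Among the mRNAs with the largest rises were those of cell surface proteins, signalling enzymes and regulators of gene expression, most of them long. The 12 named here are the largest rises among called protein-coding genes whose group means reached 20 CPM on the higher side and whose libraries did not overlap between the groups, as they did not for 84.7% of all genes tested in either direction. Several of them encode stretches in which one kind of amino acid is repeated. This was noticed after the genes had been named, and the stretches are printed because they are what a reader would see on opening these sequences. For 3 of the 12 genes, those with the densest window of asparagine and glutamine codons, the richest 50 codons are given from the R64 reference in the coding direction, with the codons for asparagine (AAT, AAC) and glutamine (CAA, CAG) in capitals. AZF1 encodes a zinc-finger transcription factor, GLN3 the activator of genes for poor nitrogen sources, and PUF3 an RNA-binding protein whose targets are mRNAs for mitochondrial proteins. In AZF1 (chrXV:535092-535241, plus strand) 28 of the 50 codons are marked, and in GLN3 (chrV:230365-230514, plus strand) and PUF3 (chrXII:123455-123604, minus strand) 23 of 50 each.
AZF1: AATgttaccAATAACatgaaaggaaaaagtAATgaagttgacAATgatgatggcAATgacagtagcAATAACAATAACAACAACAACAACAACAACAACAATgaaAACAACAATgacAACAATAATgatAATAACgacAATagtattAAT
GLN3: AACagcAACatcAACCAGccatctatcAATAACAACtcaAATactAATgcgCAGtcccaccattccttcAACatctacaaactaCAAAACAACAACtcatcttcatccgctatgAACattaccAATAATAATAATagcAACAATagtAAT
PUF3: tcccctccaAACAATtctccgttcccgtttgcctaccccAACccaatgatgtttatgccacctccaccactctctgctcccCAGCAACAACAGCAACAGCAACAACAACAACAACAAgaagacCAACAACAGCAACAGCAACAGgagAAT

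Runs of serine codons are shown by GAC1, with all 6 serine codons in capitals in its richest 50 codons (chrXV:668637-668786, minus strand), 26 of which are marked. Gac1 directs the phosphatase Glc7 to glycogen synthase.
GAC1: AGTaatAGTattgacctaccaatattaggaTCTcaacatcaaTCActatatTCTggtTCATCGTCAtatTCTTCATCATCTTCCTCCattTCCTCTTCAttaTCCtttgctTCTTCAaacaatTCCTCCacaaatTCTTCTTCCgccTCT

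PHO89, the sodium-phosphate cotransporter, was measured at 261, 271 and 265 CPM in the 3 all NPCs libraries and at 27.7, 25.1 and 24.2 CPM in the 3 input libraries, a log2 fold change of 3.37 ± 0.06 (adjusted p = 4.6e-25, edgeR quasi-likelihood). The groups lie far apart and the GFP control was lower than input, at 10.4 ± 0.353 CPM. MTL1, which encodes a cell surface sensor of the cell wall integrity pathway, was at 824, 790.1 and 822 CPM on all NPCs and at 91.4, 87.0 and 62.1 CPM in input, the third input library being the lowest (3.34 ± 0.14; adjusted p = 7.8e-12, edgeR quasi-likelihood). HKR1, which encodes a mucin-like osmosensor, was at 900.1, 876 and 881 CPM on all NPCs and 98.5, 99.9 and 86.8 CPM in input (3.22 ± 0.08). In each of these 3 genes the lowest all NPCs library was several times the highest input library. GAC1 stood at 1428, 1447 and 1430 CPM on all NPCs, 193, 167.6 and 161 CPM in input and 53.0 ± 1.64 CPM in the GFP control. Here the control was on the other side of input (against the control, 46.9% of all genes were called higher on all NPCs), and all NPCs exceeded the control by 4.76 on the log2 scale (adjusted p = 2.1e-24, edgeR quasi-likelihood).

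IRA2, the longest of the 12 at 9240 coding bases, encodes the GTPase-activating protein that turns Ras off. Its level was 2295, 2325 and 2386 CPM on all NPCs and 291, 285 and 285 CPM in input (3.02 ± 0.05; adjusted p = 4.6e-25, edgeR quasi-likelihood). AZF1 was at 404, 401 and 395 CPM on all NPCs and 55.9, 55.8 and 46.6 CPM in input (2.92 ± 0.08). The 3 all NPCs libraries of both genes were close together and far above input. FPK1, a kinase that activates lipid flippases, was at 413, 404 and 415 CPM on all NPCs and 57.6, 51.4 and 57.5 CPM in input (2.88 ± 0.05). PUF3 was at 301, 307 and 304 CPM on all NPCs and 49.8, 39.5 and 44.0 CPM in input (2.77 ± 0.08). GLN3 was at 214, 207 and 200.5 CPM on all NPCs and 31.2, 31.4 and 30.6 CPM in input (2.74 ± 0.06). The GFP control lay close to input for AZF1, FPK1, PUF3 and GLN3, at log2 differences of -0.32, 0.29, 0.26 and 0.28. DUR12, as the annotation spells the gene of the urea-degrading enzyme urea amidolyase, was at 1098, 1097 and 1108 CPM on all NPCs, 159, 165.5 and 162 CPM in input and 167.7 ± 6.55 CPM in the GFP control (2.77 ± 0.04). MLP1, the nuclear basket gene, is the tenth of the 12 and is described with the other nucleoporins. The last, YGL149W, at 38.5, 37.1 and 39.4 CPM on all NPCs and 6.03, 6.91 and 5.40 CPM in input (2.66 ± 0.11), is a short reading frame on the opposite strand of INO80, the gene of a chromatin remodeller that was itself higher on all NPCs (2.18 ± 0.04). Whether the counting used strand is not given in the sources used here, so reads of the overlapping pair cannot be told apart.

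**Figure D1:**
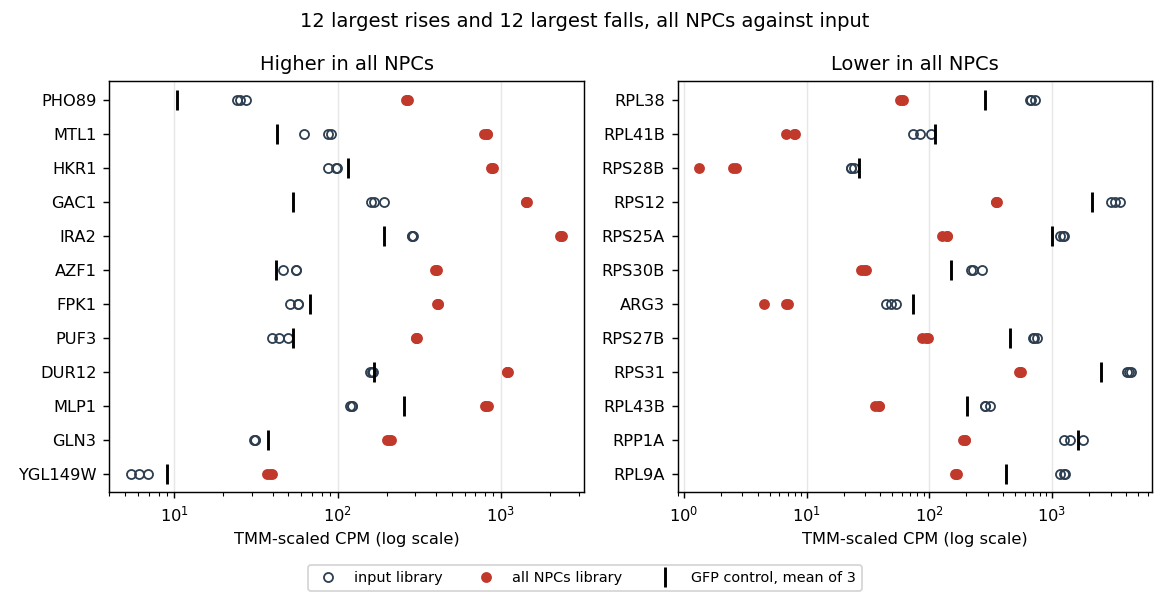
Levels of the 12 largest rises (left) and 12 largest falls (right) of all NPCs against input, in TMM-scaled CPM on a log axis. Filled circles are the 3 all NPCs libraries, open circles the 3 input libraries and black ticks the mean of the 3 GFP control libraries. The groups do not overlap for any of these genes, which the rule required, and the control tick lies more than 2-fold below the input circles for PHO89, GAC1, RPL38 and RPL9A and above them for MLP1.

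The largest falls were almost all of mRNAs for ribosomal proteins, the short and very abundant messages of growing yeast: 11 of the 12, the exception being ARG3. Median coding length was 300 bases over the 12 falls and 2661 over the 12 rises, beside 1209 over all 5762 protein-coding genes tested. RPL38, encoded by a single gene, was at 57.5, 61.1 and 60.04 CPM on all NPCs and 724, 676 and 661 CPM in input, a log2 fold change of -3.53 ± 0.07 (adjusted p = 3.1e-21, edgeR quasi-likelihood). The GFP control lay between them at 283 ± 17.0 CPM, and all NPCs were -2.25 against it. RPS12, also a single gene, was at 354, 353 and 347 CPM on all NPCs and 3028, 3232 and 3583 CPM in input (-3.22 ± 0.10), with 2132 ± 152 CPM in the control. RPS31, which encodes a ribosomal protein fused to ubiquitin, was at 543, 560.4 and 534 CPM on all NPCs and 4104, 4218 and 4389 CPM in input (-2.96 ± 0.05). In these genes the libraries of each group agreed to within a small part of the difference. RPP1A, an acidic stalk protein, was at 194, 189 and 196 CPM on all NPCs and at 1244, 1400 and 1772 CPM in input (-2.93 ± 0.19). Its input libraries spread widely, without reaching the all NPCs libraries.

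RPS25A (-3.16 ± 0.06), RPS30B (-3.03 ± 0.08), RPS27B (-2.97 ± 0.05), RPL43B (-2.95 ± 0.06) and RPL9A (-2.90 ± 0.05) each have a closely similar second gene, and so do RPL41B and RPS28B, so their values depend on how the counting treated reads that fit both copies, which is not given in the sources used here. The coding sequences of the last pair are printed whole to show how little there is to count: RPL41B (chrIV:221724-221801, minus strand) is 78 bases long and RPS28B (chrXII:673131-673334, plus strand) 204. Codons for asparagine and glutamine are again in capitals, none in RPL41B and 3 in RPS28B.
RPL41B: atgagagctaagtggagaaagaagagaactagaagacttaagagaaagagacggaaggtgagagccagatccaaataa
RPS28B: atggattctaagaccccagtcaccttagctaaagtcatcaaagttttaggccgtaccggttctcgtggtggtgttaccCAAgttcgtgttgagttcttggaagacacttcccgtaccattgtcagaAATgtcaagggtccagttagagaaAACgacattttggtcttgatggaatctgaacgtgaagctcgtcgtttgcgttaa

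RPL41B was at 6.78, 7.83 and 8.01 CPM on all NPCs and 73.1, 83.3 and 104 CPM in input (-3.52 ± 0.29), and RPS28B at 2.49, 2.66 and 1.33 CPM and 23.1, 23.2 and 24.5 CPM (-3.45 ± 0.18). Both are rare for ribosomal protein mRNAs at these counts, and in both the control was close to input, at 111 ± 15.3 and 26.8 ± 2.33 CPM. ARG3, which encodes ornithine carbamoyltransferase of arginine synthesis, was at 4.52, 7.05 and 6.82 CPM on all NPCs, 48.4, 53.2 and 44.6 CPM in input and 73.5 ± 7.47 CPM in the control (-2.98 ± 0.15; adjusted p = 9.9e-14, edgeR quasi-likelihood).

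The fall ran through the whole ribosome. All 81 large-subunit and all 57 small-subunit genes were called lower on all NPCs than in input, where 37.1% of all genes were, with medians of -1.83 and -1.77, and this held under every alternative that was run. The smallest fall was that of RPL15B (-0.22 ± 0.08). The sizes differed widely between genes: RPL9A fell by 2.90 and RPL41B by 3.52, but RPL4A and RPL4B by 0.72 and 0.69. Ribosomal protein mRNAs made up 4.80 ± 0.07% of counts on all NPCs and 14.8 ± 0.3% in input (mean ± SD, n = 3; the 3 values of one group do not overlap those of the other, and the exact permutation p of 0.1, two-sided, is the smallest that 3 against 3 can give). In the GFP control the share was 13.3 ± 0.2%. There, 28 large-subunit genes were called higher than input and 42 lower, with a median of -0.14, and 11 and 35 small-subunit genes, with a median of -0.28. All NPCs against that control gave 78 and 56 genes called lower and none higher, with medians of -1.61 and -1.53 and a background of 37.6% of all genes called lower.

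The pore's own messages did not move together. Of 33 nucleoporin genes, 23 were called higher and 6 lower, with a median of 0.37. Over all genes 44.6% were higher and 37.1% lower, with a median of 0.08. The GFP control had 8 higher and 19 lower than input (37.2% and 42.4% over all genes), with a median of -0.22. The widest span was in the basket. MLP1 and MLP2 encode the long coiled-coil filaments of the basket. MLP1 was at 806, 818 and 831 CPM on all NPCs and 123, 120.0 and 123 CPM in input (2.74 ± 0.04; adjusted p = 8.4e-26, edgeR quasi-likelihood). The control, at 257 ± 4.31 CPM, was itself above input by 1.07, and all NPCs exceeded the control by 1.67 (adjusted p = 6.0e-23, edgeR quasi-likelihood). MLP2 was at 806, 818 and 866 CPM on all NPCs and 215, 206 and 218 CPM in input (1.96 ± 0.05). NUP1, a basket nucleoporin with phenylalanine-glycine repeats, was at 385, 369 and 382 CPM and 117, 115 and 106 CPM (1.75 ± 0.05). These 3 long messages rose strongly, while NUP2, which binds the importin Srp1, was at 298, 282 and 299.8 CPM and 222, 226 and 222 CPM (0.39 ± 0.04). NUP60, which anchors Mlp1, Mlp2 and Nup2 at the pore, fell: it was at 60.4, 57.4 and 63.1 CPM on all NPCs and 93.2, 95.8 and 91.9 CPM in input (-0.63 ± 0.06; adjusted p = 1.9e-10, edgeR quasi-likelihood). So 4 of the 5 basket genes rose and 1 fell, under each alternative tried. Against basket-less pores, where 22.8% of all genes were called higher on all NPCs and 20.3% lower, MLP1 was higher by 0.65 (edgeR quasi-likelihood).

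The counts by substructure that follow stand beside 44.6% called higher and 37.1% called lower over all genes. In the Y complex, the outer scaffold, 4 of 7 rose, led by NUP133 (0.83 ± 0.06) and NUP145 (0.75 ± 0.05). The 2 that fell were SEC13 (-0.41 ± 0.04), shared with the coat of transport vesicles, and NUP85 (-0.28 ± 0.05). In the inner and membrane rings 6 of 10 rose, among them ASM4 (0.91 ± 0.06) and NUP170 (0.90 ± 0.05), and NIC96, the hub of the inner ring, fell (-0.69 ± 0.06), as did NDC1 (-0.19 ± 0.06). Those counts rest on the scaling, since with upper-quartile factors 2 and 3 Y complex genes and 2 and 4 ring genes were called higher and lower, with NUP120, NUP192 and the uncalled NUP53 changing sign. Of 11 repeat-bearing and cytoplasmic-side nucleoporins 9 rose, among them GLE1 (0.95 ± 0.05), the activator of Dbp5, NUP116 (0.83 ± 0.04) and NUP159 (0.64 ± 0.04), although NUP49 changed sign with upper-quartile factors. DYN2, a dynein light chain that also sits on the cytoplasmic filaments, fell: it was at 20.3, 16.7 and 17.3 CPM on all NPCs and 42.3, 44.7 and 47.5 CPM in input (-1.31 ± 0.10). At 279 coding bases it is the shortest gene of the group. Across the 33 genes the Spearman correlation of log2 fold change with coding length was 0.54, as a description of genes measured in the same libraries, and in the GFP control against input it was -0.18.

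**Figure D2:**
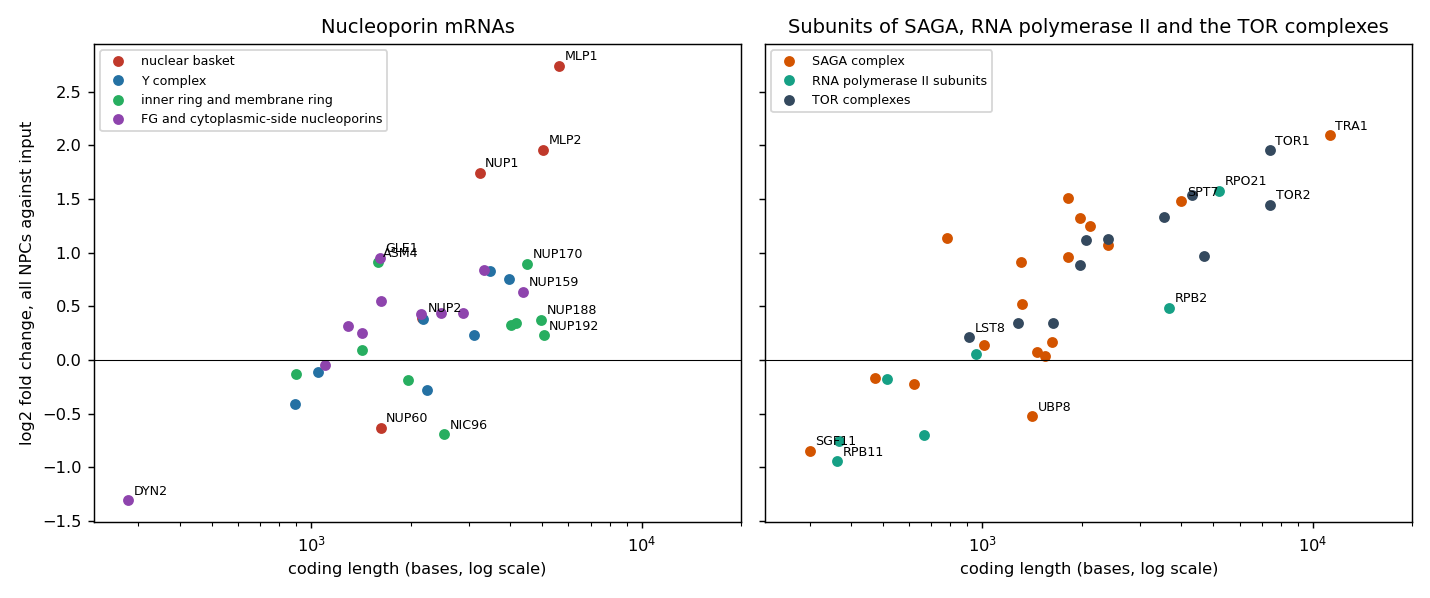
Log2 fold change of all NPCs against input (vertical axis) against coding length in bases (log axis) for nucleoporin genes by substructure (left) and for subunits of SAGA, RNA polymerase II and the TOR complexes (right), 1 point per gene. Long subunits tend to lie high and short ones low in both panels, with MLP1 at 2.74 and DYN2 at -1.31, and NIC96 and NUP60 lie below others of their length.

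Among 15 karyopherins, the carriers that shuttle cargo through the pore, 10 fell and 4 rose, although their median coding length is 3099 bases, and the Spearman correlation of log2 fold change with length over the 15 was -0.14. KAP122 was at 22.6, 25.5 and 24.4 CPM on all NPCs and 74.6, 65.9 and 63.5 CPM in input (-1.49 ± 0.09), and KAP123, the main importer of ribosomal proteins, was at 182.5, 168.2 and 182.1 CPM and 343, 345 and 339.8 CPM (-0.95 ± 0.04). Both were about as low in the GFP control, at 23.3 ± 1.94 and 146 ± 4.47 CPM, where 14 of the 15 were called lower than in input and none higher. MSN5, an exporter of phosphorylated proteins, was at 429, 438 and 433 CPM on all NPCs and 214, 209 and 217 CPM in input (1.02 ± 0.04), and KAP95, importin beta, rose by 0.69. Against the GFP control 11 karyopherins were higher on all NPCs and 1 lower, with a median of 0.29, so the direction of this group depends on whether the extract or the nanobody control is the reference. Among 16 export factors and mRNP proteins 7 rose and 7 fell, near the shares over all genes, and 7 and 9 with upper-quartile factors. TOM1, a very long ubiquitin ligase involved in export (1.44 ± 0.04), HRB1 (0.96 ± 0.04) and MEX67, the export receptor (0.80 ± 0.05), rose, and HRP1 (-1.35 ± 0.04), DBP5 (-0.86 ± 0.05) and YRA1 (-0.60 ± 0.05), an adaptor for Mex67, fell. In TREX-2 and THO, which link transcription to export, 6 of 10 rose and 3 fell (44.6% and 37.1% over all genes). THO2 (1.21 ± 0.05) and SAC3 (1.10 ± 0.06) led the rises, and the small subunits SUS1 (-0.73 ± 0.09) and SEM1 (-0.64 ± 0.06) fell with TEX1 (-0.40 ± 0.09). Of 12 genes for nuclear envelope membrane proteins and spindle pole anchors, 7 rose and 4 fell (44.6% and 37.1% over all genes). SRC1, an inner nuclear membrane protein, was at 300.1, 294 and 302 CPM on all NPCs and 114, 124 and 115 CPM in input (1.35 ± 0.05), and APQ12, a small membrane protein, was the lowest (-1.34 ± 0.12).

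SAGA is a coactivator that acetylates histones and has been described in contact with pores through Sus1 and Sgf73. Of its 18 subunits 12 rose and 4 fell (44.6% and 37.1% over all genes), with a median of 0.72. The GFP control had nearly the same split, 11 higher and 4 lower than input, with a median of 0.305. Against that control 14 were higher on all NPCs and 3 lower (46.9% and 37.6% over all genes), with a median of 0.51. TRA1, the very long subunit that contacts activators, was at 694, 698 and 708 CPM on all NPCs and 164 ± 14.0 CPM (mean ± SD, n = 3) in input (2.10 ± 0.08). SPT8 (1.51 ± 0.08), SPT7 (1.48 ± 0.04) and SGF73 (1.33 ± 0.08) followed, and SGF11 (-0.85 ± 0.14) and UBP8 (-0.52 ± 0.08), both of the deubiquitylating module, fell. The Spearman correlation with coding length over the 18 was 0.76. Of 7 subunits of RNA polymerase II, RPO21, the largest, was at 1110, 1104 and 1119 CPM on all NPCs and 384, 379.8 and 352 CPM in input (1.58 ± 0.05), RPB2 rose by 0.49, and RPB11 (-0.94 ± 0.12), RPB9 (-0.76 ± 0.09), RPB4 (-0.70 ± 0.06) and RPB7 (-0.18 ± 0.07) fell. Of 19 subunits of RNA polymerases I and III, 13 fell and 3 rose (37.1% and 44.6% over all genes), with a median of -0.53. The GFP control also had 13 lower than input and 4 higher, with a median of -0.26. Against that control 8 were higher on all NPCs and 10 lower, with a median of -0.31. RPA135, though 3612 coding bases long, was among those that fell (-0.80 ± 0.04), and it was lower in the GFP control too (-0.49). All 10 histone genes fell, with a median of -0.67, HHT1 being at 150.3, 146 and 140.5 CPM on all NPCs and 357, 368 and 396 CPM in input (-1.36 ± 0.04). Histone genes are short, with a median coding length of 399 bases. All 860 genes under 500 bases had the same median of -0.67, with 61.3% called lower. Of 13 exosome genes 9 fell (37.1% over all genes), with a median of -0.38, led by the helicase gene MTR4 (-1.01 ± 0.06). The GFP control had 6 of the 13 lower and 3 higher than input, with a median of -0.02.

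Ribosome assembly factors, which act in the nucleolus and are controlled with the ribosome, mostly fell: 74 of 93 were called lower and 10 higher, where 37.1% and 44.6% of all genes were, with a median of -0.61. The GFP control had 72 lower and 13 higher than input (42.4% and 37.2% over all genes), with a median of -0.53. Set directly against that control, all NPCs gave 35 higher and 39 lower with a median of -0.02. Their promoters share a sequence: GATGAG or its reverse complement CTCATC lies in the window from 250 bases before to 50 bases into the coding sequence in 88 of the 93, and in 20.4% of the 5989 such windows of nuclear protein-coding genes. The windows of DBP2, a helicase, and SNU13, a protein of small nucleolar RNPs, are shown since they are the members with the strongest falls by p, from the R64 reference in the direction of the gene and with the motif in capitals (chrXIV:413389-413688 and chrV:101693-101992, both plus strand). A match is a description of the letters only.
DBP2: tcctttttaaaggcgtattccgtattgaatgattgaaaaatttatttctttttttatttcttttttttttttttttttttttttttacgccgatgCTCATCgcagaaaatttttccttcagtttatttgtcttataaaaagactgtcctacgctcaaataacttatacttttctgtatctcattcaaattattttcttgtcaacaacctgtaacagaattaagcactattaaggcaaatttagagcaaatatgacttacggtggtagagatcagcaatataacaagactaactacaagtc
SNU13: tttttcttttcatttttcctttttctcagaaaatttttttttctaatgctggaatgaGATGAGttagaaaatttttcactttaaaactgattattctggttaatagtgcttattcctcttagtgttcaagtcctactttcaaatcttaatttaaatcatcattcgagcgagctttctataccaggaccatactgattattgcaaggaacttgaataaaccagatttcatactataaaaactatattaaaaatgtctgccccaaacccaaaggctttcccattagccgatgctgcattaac

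DBP2 was at 160.2, 157 and 163 CPM on all NPCs, 590.2, 581 and 555 CPM in input and 214 ± 2.70 CPM in the GFP control (-1.85 ± 0.04; adjusted p = 3.4e-23, edgeR quasi-likelihood). SNU13 was at 50.9, 51.9 and 48.0 CPM, 209.5, 214 and 215 CPM and 155 ± 5.10 CPM (-2.08 ± 0.06). For both, the control lay between the groups. REA1, the dynein-like remodeller of the large subunit and the longest gene tested at 14733 coding bases, went the other way: it was at 1386, 1442 and 1451 CPM on all NPCs and 405, 428 and 456 CPM in input (1.73 ± 0.05). Translation factors also fell, 25 of 31 (37.1% over all genes) with a median of -0.70. The GFP control had 21 of the 31 lower and 8 higher than input, with a median of -0.35. Against that control 23 were lower on all NPCs and 6 higher, with a median of -0.53. CDC33, the cap-binding protein, was at 218, 218 and 225 CPM on all NPCs and 660.1, 678 and 655 CPM in input (-1.59 ± 0.04), and TEF1 and TEF2, which encode the same elongation factor and cannot be counted apart with confidence, fell by 1.42 and 1.40. TIF4632, one of a pair of genes for the scaffold eIF4G, rose (1.52 ± 0.04), and its partner TIF4631 fell (-0.46 ± 0.04). Of 56 genes for mitochondrial ribosomal proteins, 17 rose and 24 fell (44.6% and 37.1% over all genes), with a median of -0.07, from MRP2 (-1.57 ± 0.10) to MRP20 (0.69 ± 0.05). The counts rest on the scaling, at 12 and 29 with DESeq2 size factors and 5 and 40 with upper-quartile factors. On the nanobody alone (GFP control) 39 of them were higher than in input and 5 lower, with a median of 0.48, and all NPCs were below that control in 44 of 56, with a median of -0.64.

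The 10 protein-coding genes with most counts in input were PDC1, FBA1, TDH3, CDC19, ENO2, PGK1, GPM1, ADH1, YEF3 and RPL3, and their log2 fold changes ran from -1.796 (PGK1) to -0.63 (FBA1). They were chosen on one of the groups compared, so these values are a description. Over the quintile of genes with the highest mean level, 48.0% were called higher and 44.6% lower, with a median of 0.02. The 50 protein-coding genes with the highest mean over both groups held 13.4 ± 0.09% of counts on all NPCs, 19.8 ± 0.37% in input and 17.2 ± 0.29% in the GFP control (mean ± SD, n = 3). Of 19 genes of glycolysis and fermentation 14 fell and 2 rose (37.1% and 44.6% over all genes), with a median of -0.63. The GFP control had 12 of the 19 lower and 3 higher than input, with a median of -0.17. PGK1, phosphoglycerate kinase, was at 2208, 2225 and 2143 CPM on all NPCs and 7380, 7717 and 7747 CPM in input (-1.796 ± 0.05). PDC1, pyruvate decarboxylase and the most counted of all in input, was at 8262, 8331 and 8245 CPM and 16550, 17180 and 17610 CPM (-1.05 ± 0.04), with 11140 ± 275 CPM in the GFP control. HXK1, a hexokinase that is induced when glucose falls and whose gene has been described at pores, rose: it was at 3534, 3496 and 3492 CPM on all NPCs and 1103, 1172 and 1261 CPM in input (1.57 ± 0.04). Its close relative HXK2 fell (-1.17 ± 0.03).

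Storage carbohydrate genes moved against glycolysis. Of 14 genes of glycogen metabolism 11 rose and 1 fell, with a median of 1.39, and all 7 of trehalose metabolism rose, with a median of 1.17, where 44.6% of all genes were called higher. GLC3, the branching enzyme, was at 2923, 2905 and 2898 CPM on all NPCs and 712, 732 and 732 CPM in input (2.00 ± 0.04; adjusted p = 1.2e-23, edgeR quasi-likelihood). GSY1, a glycogen synthase, was at 2228, 2255 and 2266 CPM and 560.4, 574 and 608 CPM (1.95 ± 0.05), and GDB1, the debranching enzyme, at 1045, 1042 and 1055 CPM and 273, 278 and 265 CPM (1.95 ± 0.03). TPS2, which completes trehalose synthesis, was at 3654, 3645 and 3672 CPM and 1069, 1056 and 1031 CPM (1.797 ± 0.03). Libraries of the groups did not overlap in any of these. In the GFP control 13 of the 14 glycogen genes were called lower than input (42.4% over all genes) and none higher, with a median of -1.07, and GLC3 stood at 242 ± 12.6 CPM, so the distance of all NPCs from that control was larger, with a median of 2.11. PGM1 (-0.59 ± 0.04) was the 1 glycogen gene called lower.

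Mitochondrial energy genes encoded in the nucleus fell in 34 of 39 cases, with a median of -0.93 and a median coding length of 462 bases. ATP17, a small subunit of the ATP synthase, was at 26.7, 24.1 and 25.4 CPM on all NPCs and 98.2, 97.9 and 95.9 CPM in input (-1.94 ± 0.07), and NDE1, an external NADH dehydrogenase of 1683 coding bases, at 399, 405 and 405 CPM and 1017, 1046 and 1090 CPM (-1.38 ± 0.04), while NDI1 (0.87 ± 0.04) and NDE2 (0.70 ± 0.09) rose. The GFP control had 14 of the 39 higher and 15 lower than input (37.2% and 42.4% over all genes). Proteasome genes fell in 26 of 32 cases (37.1% over all genes), with a median of -0.49, PRE9 furthest (-1.56 ± 0.05). The GFP control had 17 of the 32 lower and 13 higher than input, with a median of -0.12. Of 25 chaperones of the heat shock response, 10 were higher and 13 lower, near the shares over all genes (44.6% and 37.1%), and 6 and 16 with upper-quartile factors. HSP42, a small heat shock protein, was at 1908, 1925 and 1910 CPM on all NPCs and 763, 766 and 753 CPM in input (1.33 ± 0.04), and SSA4, the inducible Hsp70, rose by 1.04, while HSC82, the constitutive Hsp90, fell (-1.42 ± 0.06) and HSP82, its inducible twin, rose (0.40 ± 0.08). In adenine synthesis 5 of 10 were higher and 5 lower, again near the shares over all genes. Of 11 genes of arginine metabolism 6 rose, among them ARG4 (1.00 ± 0.04) and the arginine-degrading CAR2 (1.45 ± 0.09), and 4 fell, among them ARG3 and ARG1 (-1.34 ± 0.04). Over all genes the shares were 44.6% and 37.1%. In the GFP control 10 of the 11 were higher than in input and 1 lower. ARG1 was higher in the GFP control than in input by 2.16.

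Signalling genes were mostly higher on all NPCs. The Ras and protein kinase A pathway signals glucose through cyclic AMP and holds down stress and storage programmes. Of its 21 genes 16 rose and 3 fell (44.6% and 37.1% over all genes), with a median of 1.18. The GFP control had 6 of the 21 higher and 12 lower than input, with a median of -0.24. CYR1, adenylate cyclase, was at 1022, 1016 and 1052 CPM on all NPCs, 203, 201 and 191 CPM in input and 202 ± 3.50 CPM in the GFP control (2.38 ± 0.04; adjusted p = 3.2e-25, edgeR quasi-likelihood). RIM15, a kinase held back by protein kinase A, was at 624, 619 and 638 CPM and 139, 142 and 132 CPM (2.19 ± 0.04), and YAK1, another kinase of the pathway, at 1214, 1233 and 1244 CPM and 311, 315 and 296 CPM (2.00 ± 0.05). The rises cover members that drive the pathway and members that oppose it, with both Ras inactivators, IRA2 and IRA1 (1.802 ± 0.05), beside the exchange factor CDC25 (1.43 ± 0.04), the receptor GPR1 (1.42 ± 0.04) and the downstream activators MSN2 (1.18 ± 0.07) and MSN4 (0.78 ± 0.06). RAS1 (-0.64 ± 0.05), SRV2 (-0.25 ± 0.04) and the regulatory subunit BCY1 (-0.11 ± 0.04) fell. All 11 genes of the TOR complexes, which couple nutrients to growth, rose (44.6% over all genes), with a median of 1.12. With upper-quartile factors 8 were called higher and none lower. Their median coding length was 2400 bases. Of all genes of 2000 to under 3000 bases 74.1% were called higher, with a median of 0.59. The GFP control had 6 of the 11 higher and 4 lower than input, with a median of 0.13. TOR1 was at 453, 448 and 466 CPM on all NPCs and 119.5, 121 and 112 CPM in input (1.96 ± 0.04), TOR2 rose by 1.45, and LST8, the shortest, by 0.21.

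At the cell surface, most sensors and transporters were higher than in input and most secreted wall proteins were lower. In the GFP control 6 of 10 stress sensors were higher than in input and 3 lower, with a median of 0.21. On all NPCs 9 of the 10 rose (44.6% over all genes), with a median of 1.10. Beside MTL1 and HKR1 these included WSC4, at 79.0, 73.6 and 74.9 CPM on all NPCs and 24.8, 22.5 and 18.5 CPM in input (1.79 ± 0.09), and MSB2, a mucin-like sensor, at 266, 258 and 267 CPM and 90.5, 87.0 and 77.8 CPM (1.63 ± 0.07). WSC4 was nearly as high in the GFP control, at 62.9 ± 4.04 CPM, and SHO1 fell (-0.43 ± 0.07). Of 13 ABC transporters tested of 14, 12 rose, with a median of 0.78, led by the drug pumps PDR15 (1.77 ± 0.04) and PDR5 (1.23 ± 0.04), though upper-quartile factors gave 9 higher and 2 lower. The median coding length of the 14 was 4536 bases. Of all genes of 3000 bases and over 87.0% were called higher, with a median of 1.02. Of 15 glucose sensors, regulators and hexose transporters 9 rose and 4 fell (44.6% and 37.1% over all genes). The sensor gene SNF3 was at 176, 171.2 and 168.4 CPM on all NPCs and 48.5, 46.3 and 51.5 CPM in input (1.81 ± 0.05), the repressor RGT1 (2.02 ± 0.05) and its corepressor MTH1 (1.91 ± 0.05) rose with it, and HXT3, a transporter used in glucose medium, was at 435, 446 and 447 CPM and 981, 1061 and 1102 CPM (-1.24 ± 0.04). Of 20 phosphate-responsive genes 16 rose and 3 fell, with a median of 0.74. The GFP control had 14 of them higher and 3 lower than input, with a median of 0.50. Against that control 8 were higher on all NPCs and 6 lower (46.9% and 37.6% over all genes), with a median of 0.06. The cyclin-dependent kinase inhibitor PHO81 was at 429.9, 432 and 443 CPM and 113, 109.5 and 114 CPM (1.96 ± 0.05). PHO84, the high-affinity transporter (1.21 ± 0.04), and PHO5, the secreted acid phosphatase (1.31 ± 0.04), were raised to a like extent in the GFP control, at 1.15 and 1.14, unlike PHO89. Of 28 wall mannoproteins and wall enzymes 20 fell and 7 rose. The GFP control had 20 lower and 6 higher than input (42.4% and 37.2% over all genes), with a median of -0.51. Against that control 17 were higher on all NPCs and 8 lower, with a median of 0.21. The direction of this group thus depends on which of the 2 is the reference. TIP1 was at 106, 104 and 102 CPM on all NPCs and 529, 514 and 524 CPM in input (-2.33 ± 0.05) and was low in the GFP control too, at 148 ± 7.42 CPM, whereas CCW12, at 906, 881 and 858 CPM and 3025, 2981 and 2846 CPM (-1.74 ± 0.04), was at 3404 ± 8.57 CPM there. Genes of protein entry into the endoplasmic reticulum fell in 14 of 16 cases (37.1% over all genes), with a median of -0.64. SSS1 fell furthest (-1.51 ± 0.08), while SEC61, the channel itself, rose (0.48 ± 0.04). The GFP control had 10 of the 16 lower and 5 higher than input, with a median of -0.24. Against that control 9 were lower on all NPCs and 7 higher, with a median of -0.44.

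Among motor proteins 15 of 16 rose, with a median of 0.90. Their median coding length was 2805 bases. Of all genes of 2000 to under 3000 bases 74.1% were called higher, with a median of 0.59. DYN1, the dynein heavy chain, was at 207, 222 and 224 CPM on all NPCs and 77.6, 80.6 and 82.8 CPM in input (1.44 ± 0.05), MYO3, a type I myosin, at 345, 346 and 364 CPM and 134, 126 and 129 CPM (1.44 ± 0.04), and the short dynein light chain gene DYN3 fell (-0.70 ± 0.10). mRNAs that are carried to the bud rose in 14 of 20 cases and fell in 4 (44.6% and 37.1% over all genes), with a median of 0.40. ASH1 (0.63 ± 0.04) and MET4 (1.65 ± 0.04) were among the rises, while ERG2 fell (-1.88 ± 0.04). The GFP control had 9 of the 20 higher and 6 lower than input, with a median of 0.13. Of 13 cyclin genes with SIC1, 7 rose and 1 fell, led by SIC1, the inhibitor of cyclin-dependent kinase, at 202, 203 and 208 CPM and 84.8, 90.0 and 83.9 CPM (1.25 ± 0.05), and the cyclin gene CLN3 (1.18 ± 0.12). Upper-quartile factors gave 3 higher and 4 lower of the 13, and over all genes 44.6% were higher and 37.1% lower with the main scaling. Of 10 genes described at pores when active, 7 rose and 2 fell, INO1 (-0.86 ± 0.12) and TSA2 (-0.77 ± 0.09). Over all genes 44.6% were called higher and 37.1% lower. GAL10 was at 38.1, 37.6 and 41.2 CPM on all NPCs and 12.9, 15.4 and 11.5 CPM in input (1.57 ± 0.09), and the cultures grew in YPD, a glucose medium in which the galactose genes are repressed. HSP104 was at 4796, 4736 and 4723 CPM and 2779, 2976 and 3107 CPM (0.69 ± 0.05).

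**Figure D3:**
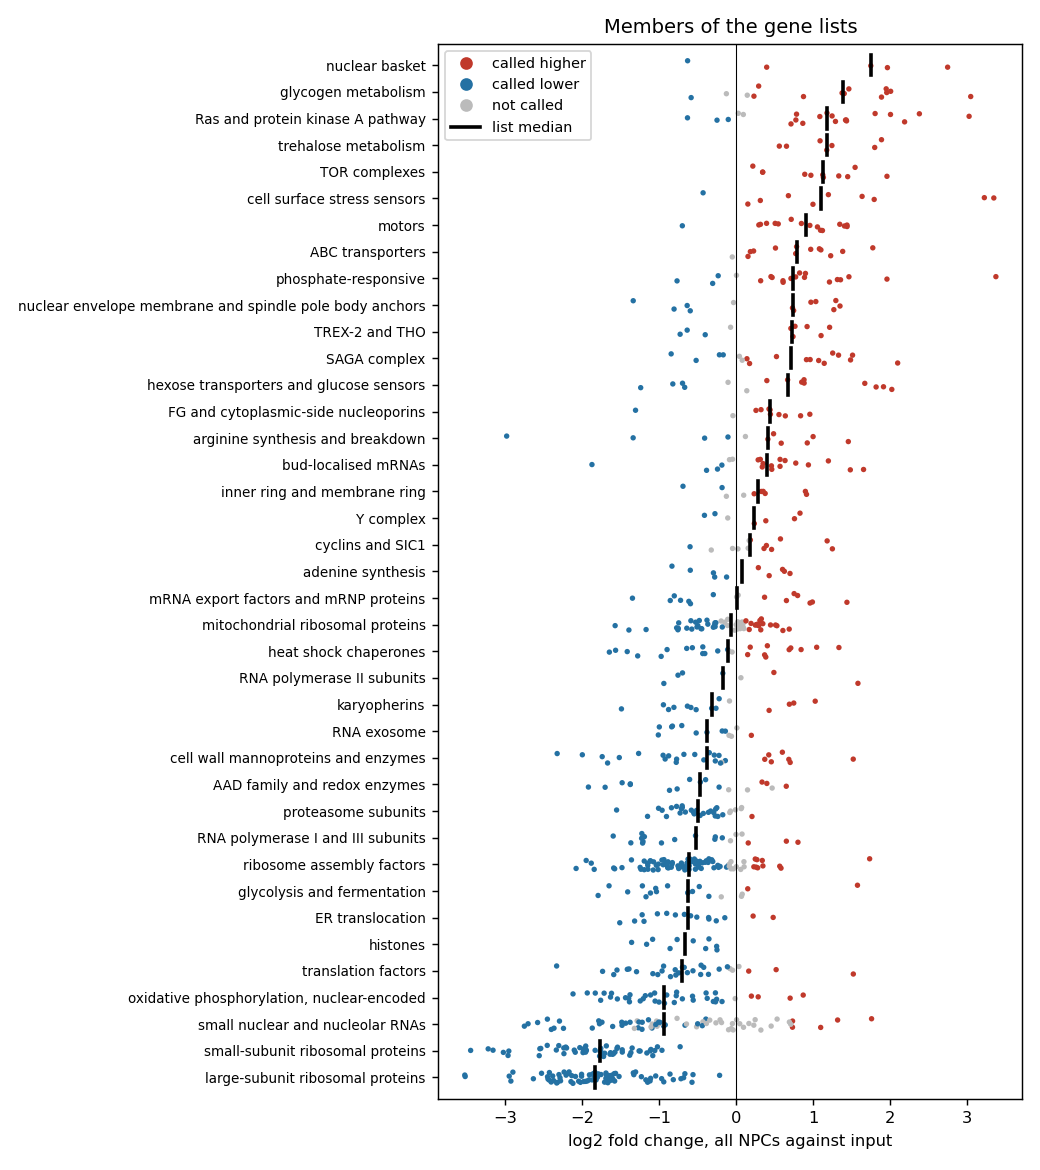
Log2 fold change of all NPCs against input for each tested member of 39 gene lists, 1 point per gene, with lists ordered by their median (black bar). Red points were called higher, blue points lower and grey points neither. Ribosomal protein genes lie wholly below 0, with medians of -1.83 and -1.77, and the nuclear basket, glycogen, trehalose, Ras, TOR and stress sensor lists have medians above 1.

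Coding length followed the fold change across the whole genome. The median log2 fold change of all NPCs against input was -0.67 for the 860 genes under 500 coding bases, -0.31 for 1439 genes of 500 to under 1000, 0.16 for 2174 genes of 1000 to under 2000, 0.59 for 798 genes of 2000 to under 3000 and 1.02 for 491 genes of 3000 and over. The step from class to class kept its order with every scaling, though the middle class had a median of -0.11 with upper-quartile factors. In the shortest class 14.7% of genes were called higher and 61.3% lower, and in the longest 87.0% and 6.7%. In the GFP control the medians of the same classes were 0.21, 0.02, -0.13, -0.20 and -0.06. Basket-less pores against input had medians of -0.535, -0.175, 0.163, 0.399 and 0.73, so the gradient was not particular to all NPCs. Over the 5762 genes the Spearman correlation of the log2 fold change with coding length was 0.53 for all NPCs against input, -0.15 for the GFP control against input, and 0.50 and -0.16 without ribosomal protein genes, all as descriptions of genes counted in the same libraries. Genes of 3000 coding bases and over held 17.5 ± 0.2% of counts on all NPCs, 8.31 ± 0.11% in input and 8.37 ± 0.07% in the GFP control. Genes under 500 held 4.86 ± 0.08%, 12.1 ± 0.2% and 13.3 ± 0.1% (mean ± SD, n = 3; exact permutation p = 0.1 for all NPCs against input, two-sided, the smallest possible). The deposited counts hold no position along the transcript, and the part of RNA integrity in this gradient was not tested.

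**Figure D4:**
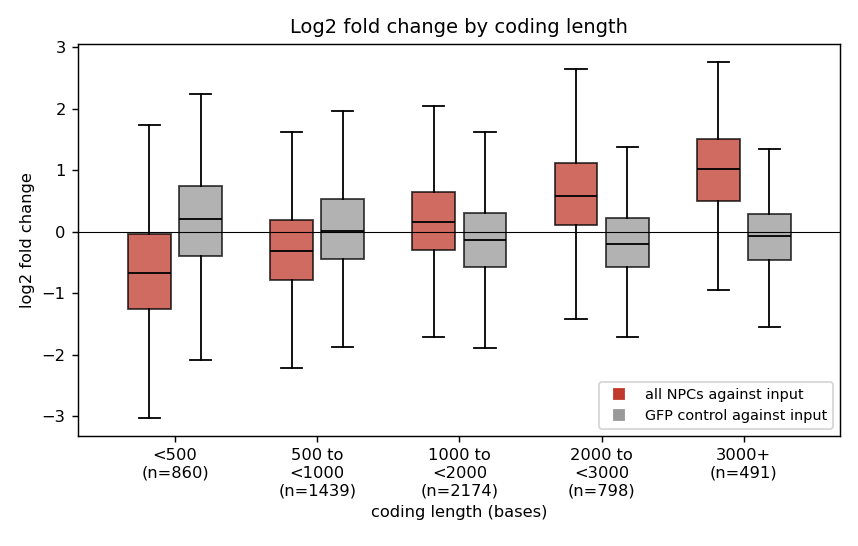
Log2 fold changes by class of coding length for all NPCs against input (red) and the GFP control against input (grey). Boxes span the middle 50% of genes with the median as a line, whiskers reach 1.5 times the box height at most, and genes beyond them are not drawn. The red medians climb from -0.67 to 1.02, and the grey medians stay between -0.20 and 0.21.

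Other features of the genes were read within length classes. Of the 256 genes with an intron that were tested, 39 were called higher and 189 lower, with a median of -0.94, and 90 of them are ribosomal protein genes. Without those, the intron genes had a median of -0.41 against 0.12 for 5458 genes without one. Below 500 coding bases the medians were -0.88 for 56 intron genes and -0.50 for 718 others, and between 1000 and 2000 they were 0.00 for 41 and 0.16 for 2130. Ribosomal protein genes without an intron, 48 in number, fell as far (median -1.76) as the 90 with one (-1.83). Reads that cover the introns themselves are not separate in the deposited counts. Stretches long and hydrophobic enough to cross a membrane (19 residues with a mean Kyte-Doolittle hydropathy of at least 1.6) made little difference at equal length. Between 2000 and 3000 coding bases the median was 0.60 for 533 genes with none, 0.66 for 137 with 1 and 0.48 for 128 with 2 or more.

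Codon content was examined because of the repeats in the named genes, so it was chosen after values had been seen. In the class of 2000 to under 3000 coding bases, the quintile of genes with the lowest share of asparagine and glutamine codons (65 genes in that class) had a median log2 fold change of 0.08, with 49.2% called higher, and the quintile with the highest share, 11.8% of codons or more (205 genes), had a median of 0.96, with 87.8% called higher. For serine codons the lowest quintile had a median of 0.34 in that class and the highest 1.09, with 90.3% of its 247 genes called higher. The highest quintile also lay above the lowest at 500 to under 1000, 1000 to under 2000 and 3000 and over for both measures. At 3000 and over the steps between were uneven for asparagine and glutamine, where the 25 genes of the lowest quintile had a median of 1.21, above 0.78, 0.86 and 1.11 in the quintiles between and below 1.41 in the highest. Below 500 bases it held for serine, -0.81 against -0.30, and was flat for asparagine and glutamine, -0.59 against -0.60. The GFP control against input, for genes of 2000 to under 3000 bases, had medians of -0.09 and -0.22 in the lowest and highest quintile for asparagine and glutamine, and -0.27 and -0.05 for serine. For basket-less pores against input the same medians were 0.061 and 0.7 for asparagine and glutamine, and 0.286 and 0.843 for serine. Of the 12 largest rises the median gene had 12.5% serine codons and 10.4% asparagine and glutamine codons, beside 8.2% and 9.4% over all genes tested, and the 12 largest falls 5.6% and 6.3%. Promoters with the stress element AGGGG, in either direction, differed less: 24.5% of genes called higher and 19.8% of genes called lower had it, beside 21.6% of the 5989 windows searched.

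**Figure D5:**
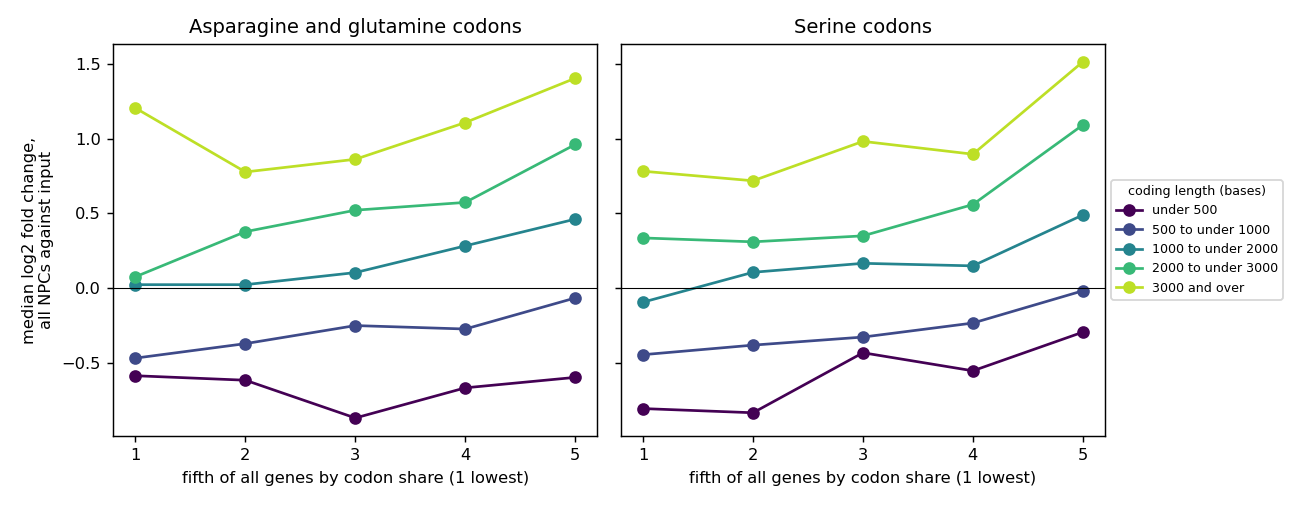
Median log2 fold change of all NPCs against input (vertical axis) by quintile of all genes ranked on the share of asparagine and glutamine codons (left) or serine codons (right), with 1 line per class of coding length. Lines for genes of 1000 to under 3000 bases climb from the lowest to the highest quintile, from 0.08 to 0.96 (left) and 0.34 to 1.09 (right) for 2000 to under 3000 bases.

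RNAs that encode no nuclear protein added a further contrast. Of the 69 small nuclear and nucleolar RNAs tested of 80, 33 fell and 5 rose, with a median of -0.94. They are not polyadenylated in their mature form, and their levels were low: SNR30 was at 6.39, 6.34 and 5.26 CPM on all NPCs and 35.4, 37.8 and 44.0 CPM in input (-2.71 ± 0.16). The GFP control had 28 higher and 8 lower than input. A pair of long noncoding RNAs at the FLO11 promoter were higher on all NPCs, ICR1 at 133, 136 and 135 CPM and 30.7, 27.4 and 26.3 CPM (2.26 ± 0.07) and PWR1 at 60.3, 56.9 and 60.6 CPM and 10.6, 8.37 and 7.65 CPM (2.73 ± 0.09). They lie on opposite strands and overlap, so their reads cannot be told apart here. RPR1, the RNA of ribonuclease P, and SCR1, the RNA of the signal recognition particle, fell (-1.70 ± 0.18 and -0.77 ± 0.14). Among features that the annotation used here does not list, YGR022C was at 158, 152 and 156 CPM on all NPCs and 18.8, 13.6 and 9.46 CPM in input (3.48 ± 0.14), and YJL188C at 116, 112 and 106 CPM and 630.0, 619 and 599 CPM (-2.47 ± 0.06). Without a listed position, overlap of these features with protein-coding genes was not assessed, and their reads may belong to such genes.

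The mitochondrial COX1 gene and the reading frames in its introns were nearly absent from input and present on all NPCs. COX1 had 1318, 1704 and 1979 counts in the 3 all NPCs libraries and 10, 12 and 16 in the 3 input libraries, a log2 fold change of 6.97 ± 0.22 (adjusted p = 1.7e-16, edgeR quasi-likelihood). AI5_BETA, a reading frame of a COX1 intron, had 2551, 2803 and 3427 counts on all NPCs and 2, 1 and 2 in input (10.62 ± 0.25). AI2 had 541, 663 and 770 counts and 14, 13 and 11 (5.63 ± 0.22). The groups were separated by many times their spread in all 3. The GFP control had 82, 9 and 62 counts of COX1, AI5_BETA and AI2 over its 3 libraries together, and basket-less pores had 1987, 6808 and 1322. Other mitochondrial genes moved less, with ATP6 at 0.93 ± 0.34, OLI1 at 0.61 ± 0.20, VAR1 at -1.45 ± 0.33 and the uncalled 21S_RRNA at -0.31 ± 0.18. The mitochondrial genome as a whole held 0.057 ± 0.008% of counts on all NPCs, 0.010 ± 0.001% in input and 0.024 ± 0.003% in the GFP control.

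Genes used to select and type strains also differed. URA3, a common selection marker, was at 658, 649.8 and 688 CPM on all NPCs, 207, 216 and 231 CPM in input and 1720 ± 24.6 CPM in the GFP control (1.61 ± 0.04), and LEU2 at 708, 733 and 727 CPM, 173.4 ± 8.72 CPM and 649.8 ± 10.7 CPM (2.06 ± 0.04). HIS3 rose (0.57 ± 0.12), and TRP1 (-0.62 ± 0.11) and ADE2 (-0.30 ± 0.04) fell. The groups were thus unlike in the expression of marker genes, and the part of strain differences in the other values was not tested. Mating-type genes were read as a check of cell type. STE2, the receptor gene that a cells express, was at 211, 215 and 216 CPM on all NPCs and 423, 394 and 375 CPM in input, and MF(ALPHA)1, which alpha cells express, was at 1.09 CPM or less in each of the 6 libraries. Of 7 a-cell genes 6 were called lower on all NPCs and none higher. Of 4 alpha-cell genes, 1 was called higher on all NPCs and 2 lower, with log2 fold changes from -1.73 to 0.81 and a median of -0.53. With a mean count of 50 the median of the alpha-cell genes was 0.485, so MF(ALPHA)1 does not stand for the whole list.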

How the data were processed

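The files hold 1 table per library of whole-number counts of reads per gene, deposited by the authors and not normalised. Per the submitters' processing notes, STAR, featureCounts, DESeq2 and the R64 build were used. For strandedness, reads that fit several genes and versions, the sources used here give nothing. Of 7127 features 6145 matched the R64 annotation by identifier, and 982 did not.

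All 18 libraries were fitted together with edgeR 4.0.16 in R 4.3.3 (filterByExpr, TMM factors, robust quasi-likelihood dispersion), which pools the spread over the 6 groups, and all NPCs were tested against input, the GFP control and basket-less pores with Benjamini-Hochberg adjustment over all 6429 tested features. The members and gene lists were chosen with earlier results of these data known. Named were the 12 largest protein-coding rises and falls with a call, a mean of 20 CPM or more on the higher side and no overlap, the 4 rises and falls among other features, the 10 genes with most input counts and the 4 members of each list with the smallest p. Other list members given are the highest, the lowest or well-known ones, chosen after their values were seen. Medians are over tested genes.

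Alternatives were DESeq2 1.42.0 (Wald test, size factors), upper-quartile factors, no filter, a mean count of 50, protein-coding genes only, the compared groups only, a replicate block and leaving out libraries. Replicate numbers did not pair libraries. Deviations from the group means of same-numbered all NPCs and input libraries correlated at -0.0139, -0.0103 and -0.0282. On counts simulated for all NPCs against input (6389 genes), edgeR called 49 and 50 of 50 genes changed by 1 and -1 on the log2 scale, 47 of 50 at 0.5 and at -0.5, and 7 of 6189 unchanged genes. The changed genes were few, balanced between rises and falls, and changed in all NPCs alone. The simulation therefore does not give error rates under shifts as broad as those in the data. Codon, hydropathy and promoter features were computed from R64 with Python 3.11.15. One coding stretch is not reported here.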

Additional observations from a re-analysis of the deposited data

Results flagged for a closer look

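All NPCs and basket-less pores were both compared with the same 3 input libraries, so the difference between them was tested directly, as all NPCs against basket-less pores (a Benjamini-Hochberg adjusted p under 0.05 from edgeR's quasi-likelihood test, and a log2 difference of at least 0.5 in either direction). Over all genes 1468 (22.8%) were called higher on all NPCs and 1305 (20.3%) lower, so the genes given here are part of a broad set of small differences. Of the named rises over input, GAC1 differed by 0.58, IRA2 by 0.55 and the basket gene MLP1 by 0.65, each higher on all NPCs than on basket-less pores. Of the named falls, RPS28B differed by -0.75, RPS12 by -0.52, RPS27B by -0.50 and RPS31 by -0.53, each lower on all NPCs. For these 7 genes all NPCs therefore lay further from input than basket-less pores did. The 7 were named for large changes against input, measured in the same all NPCs libraries, so their values here are a description. The 4 falls are part of a shift of the ribosomal protein genes. Of these, 71 of 81 large-subunit and 56 of 57 small-subunit genes were lower on all NPCs than on basket-less pores. The medians were -0.415 and -0.413.

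Among genes chosen for this difference itself, the 5 higher on all NPCs were YDR261C-D (0.81), YLR342W-A (0.80), YJL113W (0.77), SEC10 (0.73), which encodes a subunit of the exocyst, and SLK19 (0.72), a kinetochore protein. The 5 lower on all NPCs were ASC1 (-0.69), the ribosome-bound signalling scaffold, RPL25 (-0.66), RPL1B (-0.61), CDC36 (-0.61), a subunit of the Ccr4-Not complex, and RPL10 (-0.60). Since these were selected on this contrast, their values are a description.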

How the results depend on the processing

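All NPCs over input gave 2868 genes higher and 2384 lower. The split moved with the scaling: 2565 and 2713 with DESeq2 size factors, 2549 and 2699 with the DESeq2 Wald test, 2377 and 2453 with protein-coding genes only, and 2133 and 3167 with upper-quartile factors. The share of calls that were higher was 54.6% in the first case, 48.6% with size factors, 49.2% with protein-coding genes and 40.2% with upper-quartile factors. It was 2657 and 2614 without a filter, 2763 and 2321 with a mean count of 50, 2681 and 2659 with the compared groups only, 2878 and 2384 with the replicate block, 2792 to 2828 and 2303 to 2329 when 1 library of all NPCs or input was left out, and 2908 and 2424 without PrA control replicate 3. The block changed no direction of a named gene. The median of all genes was -0.027 with size factors and with the Wald test, -0.014 with protein-coding genes and -0.187 with upper-quartile factors, and changes near 0 turned with it.

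With upper-quartile factors signs turned for YDR261C-D (-0.084), MF(ALPHA)2 (-0.080), NUP120 (-0.04), NUP53 (-0.18), NUP192 (-0.040), NUP49 (-0.017) and YLR342W-A (-0.19). YLR342W-A was also at -0.026 with size factors, -0.025 with the Wald test and -0.014 with protein-coding genes, and between -0.0106 (without input replicate 2) and 0.218 (without input replicate 3) when 1 library was left out. NUP53 was at -0.0164 with size factors, -0.0163 with the Wald test and -0.0039 with protein-coding genes. STE6 lay between -0.101 (without input replicate 3) and 0.0065 (without input replicate 1) when 1 library was left out. List medians turned for export factors (-0.098 with size factors and Wald, -0.002 with a mean count of 50, -0.062 without a filter, -0.086 with protein-coding genes, -0.068 with compared groups, -0.258 with upper-quartile factors) and for adenine synthesis (-0.032 with size factors and Wald, -0.020 with protein-coding genes, -0.002 with compared groups, -0.192 with upper-quartile factors). The Y complex (-0.038), cyclins (-0.089) and genes of 1000 to under 2000 bases (-0.113) turned with upper-quartile factors, and alpha-cell genes (0.485) with a mean count of 50. Low counts limit the mitochondrial intron frames, the alpha-cell genes and the small nucleolar RNAs.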

Other observations

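Genes of aryl alcohol dehydrogenases and related redox enzymes were mostly higher in the GFP control than in input and mostly lower on all NPCs. Of 17, 15 were called higher and 1 lower in the GFP control than in input, with a median of 0.79, where 37.2% and 42.4% of all genes were. On all NPCs 3 were higher and 11 lower than in input, with a median of -0.47, where 44.6% and 37.1% of all genes were. Both values share the input libraries. Set directly against the GFP control, 15 of the 17 were lower on all NPCs and none higher (edgeR quasi-likelihood), with a median of -1.42.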
